A study of Mus musculus with 12 samples.

Results

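The cytosolic ribosomal protein genes were followed through RNA sequencing libraries of primary podocytes from diabetic mice with and without Nsd2. Members were the rows of the count tables whose symbol starts with Rpl or Rps followed by a digit, together with Rplp0, Rplp1, Rplp2 and Rpsa. Rows of pseudogenes (symbols with -ps) and the Rps6k kinases were left out. The rule found 89 genes among 23829 rows at 20 weeks and 23777 at 28 weeks. Of these, 77 encode core proteins of the ribosome, 31 of the small (40S) subunit and 46 of the large (60S) subunit. The other 12 are copies or relatives of a core gene, or genes named after one. All mice were Nsd2 fl/fl and had a diabetes model of high-fat diet with streptozotocin (HFD/STZ). Controls had no Cre (Cre-/Nsd2fl/fl) and knockouts carried a podocyte-specific Cre (Cre+/Nsd2fl/fl), whose driver the labels do not name. Podocytes were collected at 20 or 28 weeks of age, with 3 libraries in each of 4 groups. Nsd2 is a histone methyltransferase of lysine 36 of histone H3, and the study asks what its loss does to podocyte transcription at an earlier and a later point of diabetic kidney disease. Whether the 3 libraries of a group are 3 mice or repeats is not stated, so the p-values rest on a spread between libraries that could be technical.

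A cytosolic ribosome joins a small and a large subunit, each with its own set of proteins, and cells make these proteins in matched amounts and assemble them with ribosomal RNA in the nucleolus. Most vertebrate ribosomal protein mRNAs start with a C followed by a run of pyrimidines, the 5′ terminal oligopyrimidine (TOP) tract, through which LARP1 and mTORC1 set their translation. In the adult kidney, podocytes are long-lived cells that seldom divide, and mTORC1 activity in them is a known feature of diabetic kidney disease.

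The start-site sequences of 9 members are shown because the results below turn on these genes, the first 6 with a pyrimidine tract and the last 3 without. Each line gives 15 bases before and 15 bases from the annotated start on the gene's strand, taken from RefSeq on GRCm38.p6. Capitals mark the longest tract in the line, a tract being a C followed by at least 4 further C or T bases. Rpl28 and Rps27 each hold a shorter tract upstream, left in lower case.
Rpl28 (chr7:4792950-4792979, plus strand): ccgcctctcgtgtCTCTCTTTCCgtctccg
Rplp2 (chr7:141447636-141447665, plus strand): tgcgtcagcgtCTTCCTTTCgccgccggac
Rps26 (chr10:128626492-128626521, minus strand): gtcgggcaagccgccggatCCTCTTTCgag
Rps6 (chr4:86857353-86857382, minus strand): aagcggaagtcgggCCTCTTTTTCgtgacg
Rpl13a (chr7:45128731-45128760, minus strand): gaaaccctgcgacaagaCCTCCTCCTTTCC
Rps27 (chr3:90213634-90213663, minus strand): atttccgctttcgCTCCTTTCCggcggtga
Rps4x (chrX:102189377-102189406, minus strand): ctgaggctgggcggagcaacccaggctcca
Rpsa (chr9:120127751-120127780, plus strand): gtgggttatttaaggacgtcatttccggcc
Rpl7l1 (chr17:46782642-46782671, minus strand): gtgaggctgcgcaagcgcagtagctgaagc
Promoter sequences were found for 68 of the 89 members, 57 of them core genes with 67 promoters. A tract as defined above lay within 15 bases of the start in 39 of these 67 promoters (58.2%), against 36.4% of all 32851 promoters of the table. In the 300 bases from 250 before to 50 after the start, the ETS core CCGGAAGT on either strand was in 16.4% of core promoters and 3.89% of all promoters. The YY1 core ATGGCGGC was in 7.46% against 2.24%, and TATAAA in 8.96% against 13.6%. These matches describe letters near annotated starts, and the starts used in podocytes were not measured.

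Total counts per library ran from 31405349 to 38989180. Nsd2, the targeted gene, had 66.6 to 94.2 CPM (counts scaled to library size) in 20-week controls and 34.1 to 51.7 CPM in 20-week knockouts, and 77.6 to 87.2 against 35.2 to 42.9 CPM at 28 weeks. It fell by 0.88 on the log2 scale at 20 weeks (adjusted p = 0.0402) and by 1.11 at 28 weeks (adjusted p = 0.00431), each from edgeR's quasi-likelihood test with Benjamini-Hochberg adjustment over all genes. All 20 podocyte markers were listed, with a summed level of 1379 to 5263 CPM per library. Of 5 red blood cell markers, 3 were listed at 20 weeks and 4 at 28 weeks, with sums of at most 0.154 CPM. The 16 mesangial and smooth muscle markers summed to between 3619 and 17832 CPM, and the 8 parietal epithelial cell markers to between 252 and 6624 CPM. These sums do not show that the libraries held podocytes alone. Control libraries 2 and 3 at 28 weeks stood close to each other, with a mean chi-square per gene of 4.56 where the other pairs within groups ran from 74.1 to 223. They differed by more than sampling noise, but repeats of 1 mouse can do so too, so this does not settle whether they are separate mice. They were kept as separate libraries, and a fit with the 2 summed was run as an alternative. In bulk RNA, fewer cells of a type and less RNA per cell cannot be told apart.

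The levels of core members differed widely from gene to gene. Per length, core members had mean levels in 20-week controls from 97.8 FPKM (Rpl21) to 2916 FPKM (Rplp1), a unit that scales fragments by gene length and library size, with a median of 879 FPKM. The order at the top was Rplp1, then Rpl41 at 2791, Rplp0 at 2037, Rps2 at 1951 and Rpl32 at 1868 FPKM. Rplp0 and Rplp1 form part of the P stalk, which recruits translation factors, and Rpl41 is the smallest ribosomal protein. At the bottom, above Rpl21, stood Rps15a at 117, Rpl22 at 198 and Rps20 at 203 FPKM. The gene lengths implied by the FPKM values were 5136 bases for Rps15a, 3641 for Rps20, 2208 for Rpl22 and 2069 for Rpl21, against 468 for Rplp1 and 449 for Rpl41. These 4 lowest genes thus have longer models in the deposited table than the 2 highest, and the order per length rests in part on these lengths. The 5 highest genes of each group, which were not the same 5 in every group, held between 15.3% and 16.1% of its summed core FPKM.

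The share of counts in ribosomal protein genes set the knockouts apart from the controls at 20 weeks, while the groups overlapped at 28 weeks. Together the 89 genes held 5.44%, 7.44% and 6.42% of all counts in control libraries 1 to 3 at 20 weeks, and 4.04%, 4.66% and 4.38% in knockout libraries 1 to 3. All 3 knockout libraries lay below all 3 controls, with means of 6.43% ± 1.00 in controls and 4.36% ± 0.309 in knockouts (SD, n = 3). At 28 weeks control libraries 1 to 3 held 4.46%, 6.58% and 6.50%, and the knockout libraries 7.45%, 6.28% and 4.85%. The groups overlapped there, with means of 5.85% ± 1.20 and 6.19% ± 1.31. Both subunits had this pattern: small subunit genes took 2.58% of counts in 20-week controls and 1.71% in 20-week knockouts, and large subunit genes 3.75% and 2.57%. No test was run on the shares, since the members were chosen with results known.

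**Figure D1:**
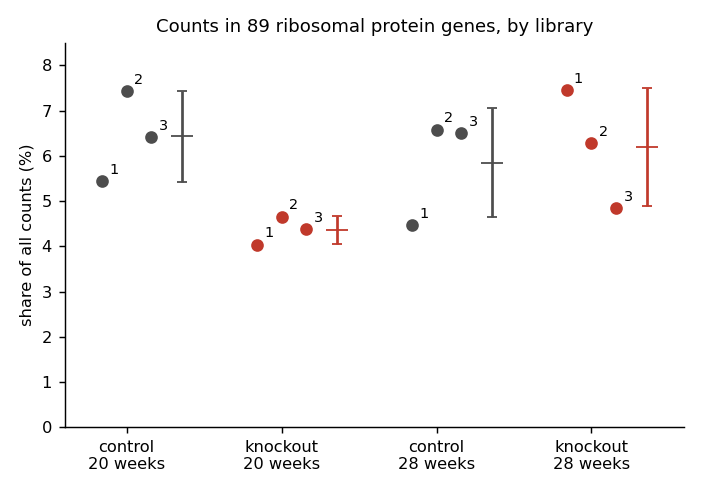
Share of all counts (%) in the 89 ribosomal protein genes. Each point is a library with its replicate number, and the bar beside each group is the mean ± SD of 3 libraries. The knockouts at 20 weeks sit between 4.04% and 4.66%, below every 20-week control, while the groups at 28 weeks overlap.

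At 20 weeks every core ribosomal protein gene had a lower fitted level in knockouts than in controls, but no member passed the test over all genes. The log2 fold changes of the 77 core genes ran from -0.78 (Rpsa) to -0.17 (Rpl9), with a median of -0.45 and a median standard error (SE) of 0.18. Of all 14853 genes tested, 48.9% had a value below 0, and their median was 0.01. All 77 core values were also below 0 under each alternative fit run, with each library left out in turn among them. Core genes moved together between libraries, with 72 of the 77 highest in control 2. The 77 values are therefore not independent of each other, and the alternative fits use the same libraries. By edgeR's quasi-likelihood test 0 of 86 tested members were called, against 5.13% of all genes called lower and 4.79% called higher. The smallest adjusted p was 0.0507, for Rps26. At an unadjusted p below 0.05, 49 members were lower and 0 higher, against 13% and 12.1% of all genes. DESeq2 called 26 members lower and 0 higher, against 8.25% and 8.14% of all genes. The call therefore turns on the tool and the scaling: between 0 and 26 members were called lower across the fits.

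Every group of genes with a shared role in the ribosome had a median below 0. The P stalk genes Rplp0, Rplp1, Rplp2 and Rpl12 had a median of -0.62, and the 6 genes around the mRNA channel of the 40S subunit a median of -0.61. The 9 genes around the peptide exit tunnel had a median of -0.43. Small subunit genes as a whole had a median of -0.51 and large subunit genes -0.43. None of these groups had a called member by edgeR's adjusted test, and differences between the roles were not tested.

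Rpsa encodes a small subunit protein that was first described as a laminin receptor, and it had the lowest value of all members. Its levels at 20 weeks were 1341, 2400.4 and 1789 CPM in the 3 controls, against 928, 1252 and 1034 CPM in the 3 knockouts. Every knockout library was below every control, with control 1 the nearest to knockout 2. Its log2 fold change was -0.78 (SE 0.24, adjusted p = 0.0786 by edgeR and 0.0166 by DESeq2). Rps26, which lies at the mRNA exit channel, came closest to a call. Its levels were 491, 645 and 538 CPM in the 3 controls, against 339, 384 and 363 CPM in the 3 knockouts. The groups did not overlap and the knockouts were close together, with a log2 fold change of -0.62 (SE 0.16, adjusted p = 0.0507 by edgeR and 0.00343 by DESeq2). Rplp2, a P stalk protein, had 483, 710 and 537 CPM in the 3 controls, against 331, 373 and 370 CPM in the 3 knockouts. These groups also stood apart (log2 -0.69, SE 0.19, adjusted p = 0.0553 by edgeR). Rps12 and Rps23 were also among the lowest, at -0.68 and -0.65.

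At the other end were Rpl9, Rpl41 and Rpl11. Rpl9 had 400, 577 and 554 CPM in the 3 controls, against 443, 475 and 445 CPM in the 3 knockouts at 20 weeks. Control 1 was below all 3 knockouts, and the other controls above them (log2 -0.17, SE 0.18, adjusted p = 0.641 by edgeR). Rpl41 had a log2 value of -0.21 (SE 0.17) and Rpl11 of -0.29 (SE 0.18), and their groups overlapped too. Rpl11 and Rpl5 form with 5S rRNA the particle that binds MDM2 when it is not built into ribosomes. Rpl5 had 857, 1227 and 1194 CPM in the 3 controls, against 773, 845 and 815 CPM in the 3 knockouts, with no overlap and an edgeR adjusted p of 0.185. Rps6, the substrate of the S6 kinases, had 754, 1009 and 818 CPM in the 3 controls, against 562, 725 and 613 CPM in the 3 knockouts. Its groups did not overlap either, and its adjusted p was 0.174 by edgeR.

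Among core genes, each overlap between the groups involved control 1. The knockouts were all below all controls for 44 of the 77 core genes, against 16.7% of all genes tested, and all above for 0, against 15.5%. Control 1 was the lowest control for 72 core genes. Without it the knockouts lay below the remaining controls for all 77, and without control 2 or control 3 for 44. Control 1 was singled out after its values were seen, and the matching shares of all genes were not computed. The core median of control 1 was -0.31 from the control mean, against 0.24 and 0.05 in controls 2 and 3. In knockouts 1 to 3 it was -0.55, -0.34 and -0.47. The median fold change was -0.60 without control 1 and -0.32 without control 2. Markers of other cell types varied between the same libraries. Of the 8 parietal epithelial cell markers, 4 fell and 0 rose. Their sum was 2244, 5182 and 3483 CPM in controls 1 to 3, in the order of the core medians of these controls. In knockouts 1 to 3 the order was not the same. The sum was 1773, 465 and 451 CPM there, highest in knockout 1, which had the lowest core median. Mesangial and smooth muscle markers summed to between 4914 and 6368 CPM in controls and between 13535 and 16302 CPM in knockouts, and 10 of 15 rose. Of the 20 podocyte markers 10 rose and 1 fell, with sums of 1701 to 2855 CPM in controls and 3757 to 5263 CPM in knockouts. Tubule markers summed to between 1071 and 1178 CPM in controls and between 64.1 and 633 CPM in knockouts. Only 8 of the 14 had enough reads to be tested, of which 2 fell and 0 rose. Slc34a1 and Aqp2 were at 0 in knockouts and were not listed at 28 weeks in either group. The part of these cell type markers in the ribosomal protein levels was not tested.

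**Figure D2:**
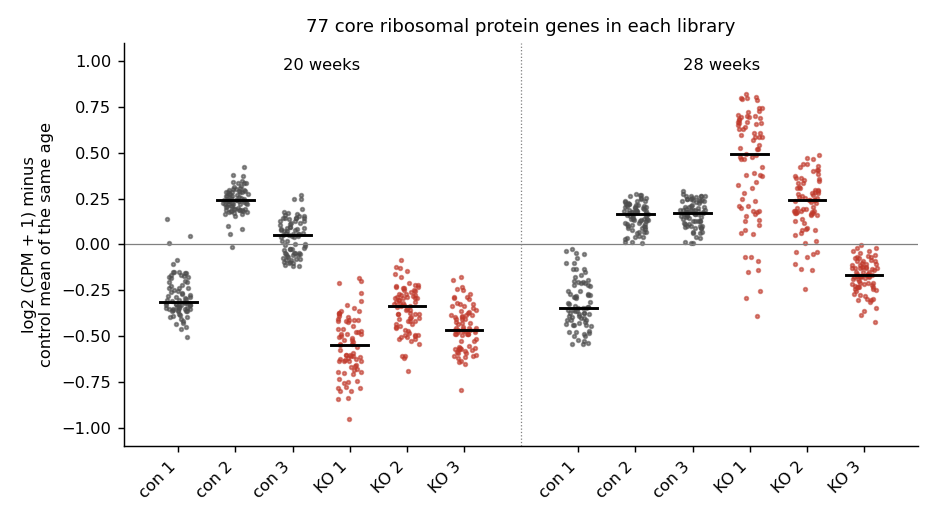
Deviation of each of the 77 core genes in each library, as log2(CPM + 1) minus the mean of the 3 controls (con) of the same age. Each dot is a gene and each black line the library's median. At 20 weeks the knockout (KO) medians lie at -0.55, -0.34 and -0.47, and at 28 weeks they spread from -0.17 to 0.49.

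At 28 weeks most core genes had small positive values, and the libraries of a group spread widely. The median log2 fold change of the 77 core genes was 0.21 (median SE 0.23), with 64 values above 0 and 13 below, where all 15011 genes tested had a median of 0.07 and 55% of them values above 0. The lowest value was -0.32 (Rpl28) and the highest 0.40 (Rps27a). No core gene was called by edgeR, against 9.33% of all genes called higher and 11.9% called lower. At an unadjusted p below 0.05, 1 core gene was lower and 0 higher, against 18.6% and 16.2% of all genes. DESeq2 called 1 core gene, Rpl28, as lower and 0 as higher, against 16.1% and 13.9% of all genes. Control 1 had a core median of -0.34 from the control mean, where controls 2 and 3 had 0.17 and 0.17. Knockouts 1 to 3 had 0.49, 0.24 and -0.17. Control 1 was the lowest of the 3 controls for all 77 core genes, and knockout 3 the lowest of the 3 knockouts for 76. The median fold change was 0.06 without control 1 and -0.00143 without knockout 1, with 30 and 39 core values below 0, so it rests on these libraries. It was also smaller on total counts (0.13) and on log2(FPKM + 1) values (0.12). The parietal sum was 2681, 5469 and 5564 CPM in the 3 controls, against 6624, 252 and 715 CPM in the 3 knockouts, highest in knockout 1, where the ribosomal protein share was also highest, and 2 of the 8 genes fell and 0 rose. In knockout 2 that share was 6.28%, with the lowest parietal sum. Knockout 1 also had the lowest podocyte sum of the 6 libraries, at 1379 CPM against 3700.1 and 2767 CPM in knockouts 2 and 3. Its mesangial and smooth muscle sum was 8201 CPM, against 17832 and 14676 CPM, and its tubule sum 927 CPM, against 32.0 and 184 CPM. In controls these 3 sums ran from 2220 to 4279, from 3619 to 4146 and from 1833 to 1887 CPM. Leukocyte markers summed to between 86.3 and 106 CPM in controls and between 628 and 845 CPM in knockouts. Of the tested markers, 7 of 15 mesangial and smooth muscle genes rose and 1 fell, 3 of 10 leukocyte genes rose, and 4 of 20 podocyte genes and 2 of 11 tubule genes fell. The part of these markers in the ribosomal protein levels was not tested.

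A few core genes went below the controls in knockout libraries in which most others went above. In knockout 1, 66 of the 77 core genes were above every control, while Rpl6, Rpl7, Rpl28, Rpl29, Rps4x and Rps26 were below every control. In knockout 2, 55 were above every control and Rpl6, Rpl28, Rpl29 and Rps4x below every control. Knockout 3 had 16 core genes below every control, among them all 6 of these, and 0 above. The shares of all genes above or below every control in a single library were not computed. At 20 weeks control 3 rather than control 1 was the lowest control for 5 core genes, Rpl6, Rpl7, Rpl29, Rps3a1 and Rps4x. These genes were singled out after their values were seen, and code for proteins of both subunits. For 4 of the 77 core genes, Rpl6, Rpl28, Rpl29 and Rps4x, all knockouts were below all controls at 28 weeks. That is 5.19% of core genes, a smaller share than the 22.8% of all genes tested.

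Rpl28, a large subunit protein, was the core gene with the lowest value at 28 weeks. Its levels were 522, 535 and 536 CPM in the 3 controls, against 433, 448 and 396 CPM in the 3 knockouts. The controls were close together and the knockouts all lower, with a log2 fold change of -0.32 (SE 0.11, adjusted p = 0.0916 by edgeR and 0.0106 by DESeq2). At 20 weeks the same gene had 493, 694 and 531 CPM in the 3 controls, against 350, 412 and 376 CPM in the 3 knockouts, also without overlap (log2 -0.59, adjusted p = 0.0795 by edgeR). The annotation places an exon of Ube2s on the other strand of Rpl28, and no source used here gives the strand setting of the counting. Rps4x, the X-linked gene of a small subunit protein, had 986, 1034 and 1052 CPM in the 3 controls, against 858, 949.7 and 844 CPM in the 3 knockouts at 28 weeks. It was lower in every knockout library, at a log2 value of -0.21 (SE 0.12, adjusted p = 0.26 by edgeR), and no overlapping exon is annotated. At 20 weeks it had 1148, 1209 and 1067 CPM in the 3 controls, against 747, 842 and 767 CPM in the 3 knockouts (log2 -0.54, adjusted p = 0.0568 by edgeR). Rpl7 had a value of -0.25 at 28 weeks (SE 0.14, adjusted p = 0.276 by edgeR), with knockout 2 at 1056 CPM among the controls at 1012 to 1133 CPM.

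Rpl13a and Rps27a had the highest core values at 28 weeks, and the spread within groups was wide. Rpl13a, a protein also known from the translational silencing complex GAIT, had 1046, 1768 and 1757 CPM in the 3 controls, against 2619, 2011 and 1414 CPM in the 3 knockouts. Knockouts 1 and 2 were above all controls and knockout 3 between them (log2 0.40, SE 0.30, adjusted p = 0.398 by edgeR). Rps27a, made as a fusion to ubiquitin, had 385, 553 and 554 CPM in the 3 controls, against 846, 639 and 489 CPM in the 3 knockouts. The 3 knockouts took the same order as for Rpl13a (log2 0.40, SE 0.25, adjusted p = 0.307 by edgeR). Rpl39 followed at 0.38 (SE 0.31). At 28 weeks Rpsa had 1123, 1739 and 1715 CPM in the 3 controls, against 2008, 1516 and 1161 CPM in the 3 knockouts, a log2 value of 0.03 (SE 0.26). Rps6 had a value of -0.01 (SE 0.13), a direction that several other fits turned.

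**Figure D3:**
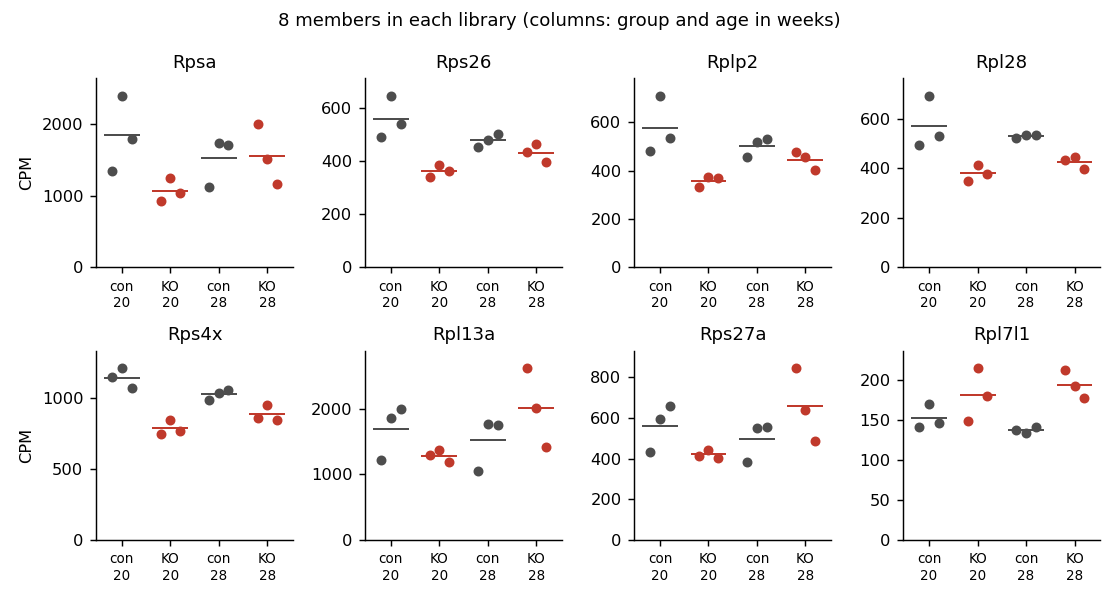
Level in CPM of 8 members in every library of controls (con) and knockouts (KO) at 20 and 28 weeks, with lines at the means of 3 libraries. Rpl28 and Rps4x are lower in all knockouts at both ages, Rpl13a and Rps27a spread widely at 28 weeks, and Rpl7l1 is higher in all knockouts at 28 weeks.

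Rpl7l1 was the only member called at either age by edgeR, and it rose. It is a relative of Rpl7 and not a standard protein of the cytosolic ribosome. Its levels at 28 weeks were 137, 134 and 141 CPM in the 3 controls, against 212, 192 and 177 CPM in the 3 knockouts. Every knockout library was above every control, with a log2 fold change of 0.49 (SE 0.11, edgeR adjusted p = 0.0251, DESeq2 adjusted p = 0.000254). It was the only member of the 86 tested with knockouts above all controls, against 19.3% of all genes. The fold change ran from 0.41 to 0.51 when 1 library was left out, and the adjusted p by edgeR was above the threshold without control 1 (0.0648), control 2 (0.12), control 3 (0.102) or knockout 2 (0.0622). It was 0.108 with control libraries 2 and 3 summed and 0.153 with a replicate block. At 20 weeks it was also the only tested member with a value above 0, at 141, 169.5 and 146 CPM in the 3 controls, against 149, 215 and 179.9 CPM in the 3 knockouts. Those groups overlapped (log2 0.25, SE 0.18, adjusted p = 0.462 by edgeR). No tract lies near its annotated start in the sequence above.

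The other copies were set beside the genes they resemble. Rpl3l, the heart and muscle relative of Rpl3, and Rpl39l and Rps23rg1 had at most 48 reads over the 6 libraries of an age. They were not tested within an age, and of them only Rps23rg1 was tested in the model of all 12 libraries. Rpl22l1, a relative of Rpl22, had log2 values of -0.39 at 20 weeks and 0.37 at 28 weeks (SE 0.20 and 0.41), and Rpl22 itself had -0.49 and 0.27. Rps27l, a relative of Rps27 and a known p53 target, had -0.38 and 0.33, beside -0.30 and 0.34 for Rps27. Rpl6l had -0.55 and -0.15, beside -0.48 and -0.13 for Rpl6. Rpl37rt had -0.62 and 0.00226, beside -0.56 and 0.05 for Rpl37, and Rps27rt had -0.32 and 0.34. None of these was called by edgeR. No source used here says how reads shared between near-identical copies were assigned, so the values of copies and of their parent genes are uncertain to that extent. Rpl36al, a copy of Rpl36a, had a tight spread at 20 weeks, with 133, 129.5 and 127 CPM in the 3 controls, against 99.4, 99.7 and 101 CPM in the 3 knockouts. The groups did not overlap, and the adjusted p was 0.134 by edgeR and 0.0312 by DESeq2. Its log2 value was -0.38 at 20 weeks, as was that of Rpl36a, and -0.09 at 28 weeks, where Rpl36a had 0.32. Rps19bp1, which codes for a binding partner of the Rps19 protein, had -0.17 and -0.02, and Rpl32l had at most 1.55 CPM in every library. The log2 values of Rpl32l were -0.09 and 0.81 (SE 0.45 and 0.67), beside -0.65 and 0.15 for Rpl32.

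**Figure D4:**
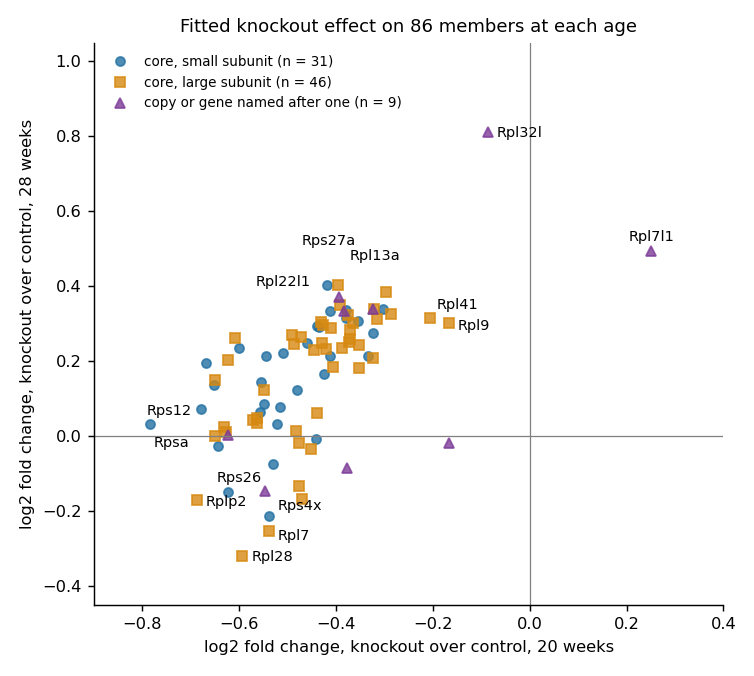
Fitted log2 fold change of knockout over control at 20 weeks (horizontal) and 28 weeks (vertical) for the 86 tested members. All 77 core genes lie left of 0, from -0.78 to -0.17, and 64 of them lie above 0 on the vertical axis, where the range is -0.32 to 0.40.

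The knockout effect was more positive at 28 than at 20 weeks for all 77 core genes, but the difference was not called for any. In a model of all 12 libraries the median change of the knockout effect was 0.65 on the log2 scale, from 0.28 (Rpl28) to 0.87, where all 15662 genes had a median of 0.05 and 54.3% of them values above 0. EdgeR called 0 members, with adjusted p-values of 0.538 or more, and 0% of all genes in either direction. DESeq2 also called 0 members, against 0.116% of all genes higher and 0.131% lower. At an unadjusted p below 0.05, 43 of 87 members were higher and 0 lower, against 4.99% and 4.12% of all genes. Rps12 (0.76, SE 0.25) and Rps13 (0.60, SE 0.20) were among the members with the smallest p. The ages were deposited in separate tables, and age and table cannot be told apart. This contrast also uses the same libraries as the comparisons within each age. Cell type markers also differed in it: 19 of 20 podocyte markers had values below 0 (median -1.18) and 10 of 10 leukocyte markers above 0 (median 1.99), with none called by edgeR. At 20 weeks the leukocyte sum was 89.1, 111 and 397 CPM in controls 1 to 3, and 354, 445 and 253 CPM in knockouts 1 to 3. The part of these markers in the ribosomal protein values was not tested.

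The same model gave the difference between ages within each genotype. In controls the core median was -0.12 from 20 to 28 weeks, with 72 values below 0, against 51.5% of all genes. EdgeR and DESeq2 each called 0 members, against at most 0.00641% of all genes, and 0 members had an unadjusted p below 0.05, against 1.33% of all genes higher and 1.64% lower. Without control 2 of 20 weeks it was 0.01, and without control 1 of 28 weeks 0.05, so the sign of that median rests on single libraries. In knockouts all 77 core values were above 0, against 53.8% of all genes, with a median of 0.54 and a range from 0.19 to 0.75. EdgeR called 0 members (adjusted p of 0.429 or more) and DESeq2 0, against 0% by edgeR and 0.141% higher and 0.115% lower by DESeq2 of all genes, while 73 of 87 members had an unadjusted p below 0.05, against 6.83% of all genes higher and 4.41% lower. Leaving out any single library kept all 77 above 0, with medians from 0.34 without knockout 1 of 28 weeks to 0.70 without knockout 3 of 28 weeks. In the same contrast 19 of 20 podocyte markers were below 0 (median -0.73) and 10 of 10 leukocyte markers above 0 (median 1.14), and their part was not tested. In controls 20 of 20 podocyte markers were above 0 (median 0.43) and 10 of 10 leukocyte markers below 0 (median -0.91). Single control libraries stood out in these sums. Leukocyte markers summed to 89.1, 111 and 397 CPM in controls 1 to 3 at 20 weeks. Podocyte markers summed to 4279, 2220 and 2285 CPM in controls 1 to 3 at 28 weeks. Rps21 had the smallest p among members in knockouts (0.60, SE 0.19), followed by Rps12 (0.55, SE 0.18) and Rpl26 (0.65, SE 0.21).

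Core genes with and without a start-site tract had overlapping values. At 20 weeks the 37 core genes with a tract within 15 bases of an annotated start had a median log2 value of -0.43, from -0.69 to -0.30. The 20 core genes with a sequence and without a tract had a median of -0.48, from -0.78 to -0.17. At 28 weeks the medians were 0.25 with and 0.07 without, and both ranges crossed 0. Rplp2, with a tract in the sequences above, was among the 5 lowest at both ages. Rpl28, also with a tract, was among the 5 lowest at 28 weeks, and Rpl13a, with a tract too, among the 5 highest there. Of the genes printed without a tract, Rpsa had the lowest value at 20 weeks (-0.78). Rps4x, also without a tract, was among the 5 lowest at 28 weeks (-0.21). These genes were picked after their values were seen. The core genes lie on 19 chromosomes, 4 of them on the X chromosome.

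Genes that act with the ribosomal proteins were read from lists chosen for their known roles. The shares of all genes called by edgeR, against which each count is read, were 5.13% lower and 4.79% higher at 20 weeks and 11.9% lower and 9.33% higher at 28 weeks. Fau and Rack1, which code for ribosomal proteins under other symbols, had values of -0.33 and -0.48 at 20 weeks and 0.31 and 0.22 at 28 weeks, and neither was called by edgeR. Of 58 genes of ribosome biogenesis, 6 fell (10.3%, all genes 5.13%) and 0 rose at 20 weeks, with a median of -0.30. At 28 weeks 12 fell (20.7%, all genes 11.9%) and 1 rose (1.72%, all genes 9.33%), with a median of -0.18. Npm1, a nucleolar chaperone of ribosome assembly, fell at both ages. It went from 816 ± 225 to 406 ± 87.6 CPM at 20 weeks (log2 -1.01, SE 0.25, edgeR adjusted p = 0.0401) and from 745 ± 72.6 to 482 ± 41.1 CPM at 28 weeks (log2 -0.63, SE 0.14, edgeR adjusted p = 0.0219). Gar1, a core protein of the snoRNPs that modify ribosomal RNA, also fell at both ages (log2 -0.68 and -0.58). Polr1a, the largest subunit of RNA polymerase I, fell at 28 weeks (log2 -1.02, SE 0.17, edgeR adjusted p = 0.01), as did Tcof1, which acts in transcription of ribosomal RNA genes (log2 -1.07). At 20 weeks Polr1a had a value of -0.41 with an adjusted p of 0.461. Sbds, which helps to release a joining factor from the 60S subunit, rose at 28 weeks (log2 0.66).

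The 19 other genes of the 5′ TOP class had a median of -0.36 at 20 weeks and 0.20 at 28 weeks, with 18 and 7 values below 0. At 20 weeks 1 fell and 1 rose (5.26% each, near the 5.13% and 4.79% of all genes). Pabpc1, the poly(A)-binding protein, fell by 0.84 on the log2 scale (edgeR adjusted p = 0.03), and Vim, the intermediate filament vimentin, rose by 1.21 (edgeR adjusted p = 0.00893). At 28 weeks 4 fell (21.1%, all genes 11.9%) and 0 rose, and the fallen included Pabpc1 (log2 -1.12), Hnrnpa1 (log2 -0.72) and the elongation factor Eef2 (log2 -0.56). Of 27 other initiation factors, 0 were called by edgeR or DESeq2 at 20 weeks, with 1 at an unadjusted p below 0.05. At 28 weeks 3 fell (11.1%) and 1 rose (3.7%), beside 11.9% and 9.33% of all genes. Eif3a (log2 -0.89) and Eif3c (log2 -0.71), subunits of the initiation complex eIF3, were among the fallen.

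Of 24 genes of mTORC1 signalling and the Myc network, 1 fell at 20 weeks (4.17%, near the 5.13% of all genes). At 28 weeks 6 fell (25%, all genes 11.9%) and 3 rose (12.5%, all genes 9.33%). Myc, a transcription factor that drives ribosome production, fell at both ages. It had 103, 87.8 and 84.4 CPM in the 3 controls, against 55.9, 32.9 and 27.7 CPM in the 3 knockouts at 20 weeks. At 28 weeks it had 125, 99.0 and 105 CPM in the 3 controls, against 30.1, 28.1 and 47.7 CPM in the 3 knockouts. The groups were apart at each age, with log2 values of -1.24 (SE 0.27, edgeR adjusted p = 0.0277) and -1.63 (SE 0.23, edgeR adjusted p = 0.00684). Eif4ebp2, a repressor of cap-dependent initiation, fell at 28 weeks (log2 -1.20). Of 10 genes tied to the Rpl5 and Rpl11 arm of p53 control, 1 fell at 20 weeks, against 5.13% of all genes, and 4 at 28 weeks, against 11.9%. The first was Mdm2 (log2 -0.97), and the others Sesn2, Trp53, Bbc3 and Mdm4 (log2 from -1.11 to -0.52).

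Mitochondrial ribosomal proteins, which build the separate ribosome of mitochondria, had values nearer 0 than the cytosolic genes at 20 weeks, a difference that was not tested. Their 78 genes had a median of -0.12 there, with 22 values above 0, 0 called by edgeR or DESeq2 and 2 higher and 3 lower at an unadjusted p below 0.05. At 28 weeks they had a median of 0.22, close to the 0.21 of the cytosolic core, and 8 rose (10.3%, near the 9.33% of all genes) and 0 fell (all genes 11.9%) by edgeR. Mrpl41 rose from 26.1, 25.6 and 26.0 CPM in controls to 47.0, 41.3 and 44.1 CPM in knockouts (log2 0.77, SE 0.11, edgeR adjusted p = 0.00692). Every knockout was above every control. Mrps6 (log2 0.93) and Mrpl48 (log2 0.67) rose as well.

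**Figure D5:**
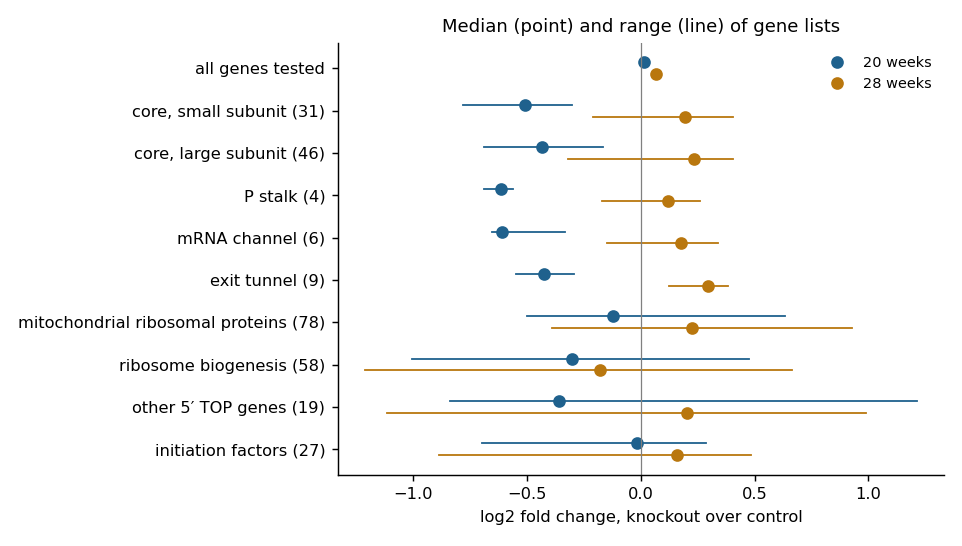
Median (point) and range (line) of the log2 fold change of knockout over control for subsets of the core genes and for related lists, with the number of genes listed. The small and large subunit medians are -0.51 and -0.43 at 20 weeks and 0.20 and 0.23 at 28 weeks, and the ribosome biogenesis median is below 0 at both ages.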

How the data were processed

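For each age the authors deposited a table of unnormalized read counts, with gene symbols as row names, and levels per length came from the FPKM tables the authors deposited beside it. Each FPKM value equalled the count divided by the column total and by 1 length per gene, within a relative tolerance of 1e-06. The genome build was GRCm38 (mm10), per the submitters' processing notes. The aligner, the counting program, the gene annotation and the strand setting were not given in the sources used here. Per the labels' protocols, RNA came from a Qiagen kit and a SMARTER mRNA kit made the libraries. No column of per-sample values was left unmapped.

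The 6 libraries of an age were fitted together in edgeR 4.0.16 (R 4.3.3) by the quasi-likelihood F test, after filterByExpr (minimum count 10, minimum total 15) and TMM scaling. P-values were adjusted over all genes by Benjamini-Hochberg, with a threshold of 0.05. A gene called lower is said to have fallen and one called higher to have risen. The change between ages and the age effects were contrasts of 1 model of 12 libraries. An SE is the log2 value over the root of its F. CPM used TMM-scaled library sizes. The script was tested on simulated data. DESeq2 1.42.0, limma 3.58.1 on log2(FPKM + 1), other scalings and filters, a replicate block and leaving out each library were the alternatives.

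The members and lists were chosen with earlier results of these data known, and Rpl32l, Rpl37rt, Rpl6l and Rps23rg1 were put among the copies after the symbols of the tables had been read. Named members were the 5 highest and 5 lowest values at each age among genes of at least 5 CPM, called members, tested copies, the 3 smallest p in each joint contrast and 11 genes of known interest, together with up to 3 genes of each other list. Some genes that the rule names are not reported here. Other members are named beside a count or a copy and were chosen after their values were seen. Gene positions are from GENCODE vM21 and sequences from RefSeq, both on GRCm38.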

Additional observations from a re-analysis of the deposited data

How the results depend on the processing

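The number of members called lower at 20 weeks was 0 as reported, and 1 with RLE size factors, 6 with upper-quartile scaling, 20 on total counts, 26 with DESeq2, 15 with a filter of 1 CPM in at least 3 libraries, 15 with limma on log2(FPKM + 1) and 21 in the model of all 12 libraries. It was 0 to 6 when 1 library was left out, with 6 only without control 1, Rpsa among them. It stayed 0 with TMM factors computed without the members and with no low-count filter. All 77 core values were below 0 in each of these fits, with medians from -0.60 to -0.32 over the libraries left out. At 28 weeks the number called lower was 0 as reported and 1 (Rpl28) with DESeq2 and on total counts. The number called higher was 1 as reported, 0 with control libraries 2 and 3 summed, and 0 to 1 when 1 library was left out. The 28-week core median ran from -0.00143 to 0.32 over the libraries left out, and was 0.13 on total counts and 0.12 with limma, with 51 and 52 core values above 0 in place of 64. For the 3 contrasts between ages 0 members were called under every alternative run.

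The labels do not say whether replicate numbers pair the libraries. Deviations from the group mean correlated at -0.10, 0.32 and -0.17 between same-numbered libraries at 20 weeks. At 28 weeks they correlated at -0.57, -0.10 and -0.47. Differently numbered libraries ran from -0.37 to 0.42 at 20 weeks and from -0.48 to 0.58 at 28 weeks. With 3 libraries a group, deviations from a group mean offset each other, so these values cannot settle the pairing. With the replicate block 2 members, Rpsa among them, were called lower at 20 weeks and 0 were called higher at 28 weeks, where Rpl7l1 had an adjusted p of 0.153 and Rpl37rt a value of -0.000753.

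Some values at 28 weeks turned sign under other settings, none of them past the threshold. Not all of these were near 0 as reported. Rpl22l1 (0.37), Rpl5 (0.31) and Rpl22 (0.27) fell just below 0 without knockout 1. On total counts the value was -0.0843 for Rpl37rt, -0.0516 for Rplp0, -0.0159 for Rps12, -0.00923 for Rps13 and -0.0567 for Rpsa. With limma on log2(FPKM + 1) the value was -0.0819 for Rpl37rt, -0.0516 for Rplp0, -0.00741 for Rps12, -0.0055 for Rps13 and -0.0565 for Rpsa. In the 12-library model the value was -0.0274 for Rpl37rt. With no low-count filter the value was -0.00122 for Rpl37rt. With upper-quartile scaling the value was 0.0233 for Rpl10, 0.0238 for Rps19bp1, 0.0127 for Rps28 and 0.0339 for Rps6. With control libraries 2 and 3 summed the value was 0.0115 for Rpl10, 0.00241 for Rps28 and 0.0138 for Rps6. With the 1 CPM filter the value was 0.00237 for Rps6. With DESeq2 the value was 0.000611 for Rps6. With RLE factors the value was 0.00062 for Rps6. The cause was not tested. Leaving out 1 library at 28 weeks gave ranges of -0.0994 to 0.0275 for Rpl10, -0.00863 to 0.422 for Rpl22, -0.0182 to 0.559 for Rpl22l1, -0.0938 to 0.0624 for Rpl37rt, -0.00546 to 0.451 for Rpl5, -0.0773 to 0.108 for Rplp0, -0.0609 to 0.142 for Rps12, -0.0181 to 0.124 for Rps13, -0.0859 to 0.0118 for Rps19bp1, -0.0227 to 0.258 for Rps23, -0.0941 to 0.0197 for Rps28, -0.0807 to 0.0238 for Rps6 and -0.214 to 0.15 for Rpsa. At 20 weeks Rpl32l ran from -0.29 to 0.21. The other values of the 35 named members kept their direction at both ages. Over all 35 and all alternatives at 20 weeks, 497 values kept direction and call, 60 gained the call and 2 turned direction. At 28 weeks 538 kept both, 48 turned direction, 6 lost the call and 2 gained it. Depth limits Rpl32l, Rpl3l, Rpl39l and Rps23rg1, and the spread between 3 libraries a group limits the others.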
